A study of Mus musculus with 28 samples.

Results

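The comparison described here sets 2 RNA-seq libraries of epidermal stem cells sorted 12 h after wounding of skin that had earlier been treated with imiquimod against 2 libraries of the same kind of cell from imiquimod-treated skin that was left unwounded. These are 4 of the 16 RNA-seq libraries and of the 28 samples of the series, and all 17299 genes with enough reads for a test were examined in them. The study asks, per its title, how past inflammation of the skin changes the later response of its stem cells to damage. Mice of the C57BL/6 strain, labelled female, were given imiquimod cream from postnatal day 60 for 6 days. Imiquimod activates the receptor TLR7 and causes a psoriasis-like inflammation of the skin.

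In the wound group the back skin received full-thickness wounds 30 days after that treatment and the tissue was taken 12 h later; the unwounded group, called day 30 here, was taken 30 days after the treatment without a wound. The cells of both groups were sorted by flow cytometry for the surface proteins integrin alpha 6, integrin beta 1 and Sca1 and against CD34, which selects interfollicular and infundibular basal cells and leaves out the CD34-positive hair follicle bulge. By their labels, both groups share the mouse strain, the imiquimod course and the sort, and differ in the wound. The labels give no hour of harvest, and day 30 library 1 went against its sex label, as described below. Control skin, used further on, received a control cream (vanicream) in place of imiquimod on the same schedule, with 2 libraries 12 h after wounding and 2 at day 30. The labels do not state that the 2 libraries of a group came from separate animals. The p-values rest on the spread between libraries within groups, pooled over the 8 groups of 16 RNA libraries. That spread may be in part technical.

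Basal keratinocytes normally adhere to the basement membrane and divide slowly to replace the layers above. After a wound, keratinocytes near the edge loosen those contacts, express stress keratins, integrins and matrix proteases, and crawl beneath the clot, while they also release antimicrobial proteins and chemokines that draw in neutrophils. Immediate early genes such as the AP-1 factors are induced within minutes of many kinds of stimulus and usually fall again within hours.

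The total count was 40674917 and 70709213 reads in the 12 h wound libraries, against 23623968 and 29453057 reads in the day 30 libraries, and 23623968 to 76993427 reads over the 16 RNA libraries. Levels are given as counts per 1000000 reads (CPM), scaled between libraries with edgeR's TMM factors; they are not divided by gene length, so they compare a gene between libraries and not 1 gene with another. The basal keratins and the markers sorted for were high in all 4 libraries. Krt5 stood at 24781 and 19169 CPM in the 12 h wound libraries and at 27650.1 and 22894 CPM in the day 30 libraries. Cd34 was at most 1.95 CPM and the blood-cell gene Ptprc at most 0.172 CPM. Not all sort markers were level between the groups. Ly6a (Sca1) stood at 919 and 684 CPM in the wound libraries and 366 and 207 CPM at day 30. Itgb1 stood at 857 and 1193 CPM against 515 and 339 CPM, while the groups overlapped for Itga6. Day 30 library 1 went against its label: it held 1 read of Xist and 6048 reads of Y-linked genes, whereas the other 3 compared libraries held 21266 to 51068 reads of Xist and at most 5 of Y-linked genes. The same library also held fibroblast collagen, with 50.6 CPM of Col1a1 against 0.0688 CPM in day 30 library 2 and 0.441 and 2.95 CPM in the wound libraries. Day 30 library 2, in turn, held more transcripts of the cornified layer than library 1, as described for those genes below. The part of these differences in the results was not tested; where leaving out 1 library ends the call of a pathway gene described here, that is stated with the gene or with the count of its list.

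The 12 h wound and day 30 libraries differed in 6512 of the 17299 genes tested (37.6%) at an adjusted p under 0.05. By direction, 3518 were higher (20.3%) and 2994 lower (17.3%) in the 12 h wound libraries. Of the genes tested, 9.62% were higher and 10.8% lower with a log2 change of at least 1 in size, and 1391 of the called genes changed by at least 2 on that scale, 627 upward and 764 downward. The 2 wound libraries lay above both day 30 libraries for 36.6% of all genes tested and below both for 33.9%, so that an absence of overlap alone sets no gene apart. All adjusted p-values are from edgeR's quasi-likelihood F test with Benjamini-Hochberg adjustment over all genes tested, and a log2 change is the 12 h wound over day 30, with its standard error after the ± sign. The median log2 change of all genes was 0.02. The number of genes called was 5719 without both day 30 libraries numbered 1, and 4308, 4066 and 4251 without wound library 1, wound library 2 or day 30 library 2. A gene list with a share of members higher near 20.3%, or lower near 17.3%, is not set apart from the genes at large. Genes were named by a rule of size, p and list membership; members of lists that the rule did not reach are named where few of a list moved that way, and were chosen after their values were seen.

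**Figure D1:**
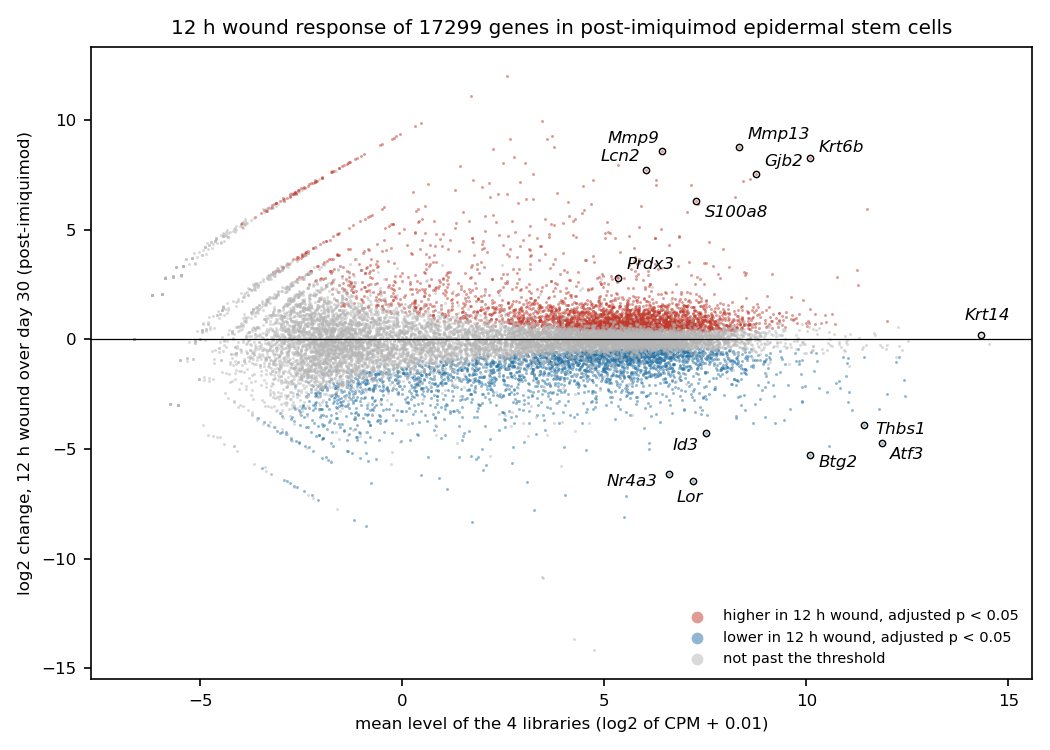
Each point is 1 of 17299 genes; the x axis is the mean level of the 4 libraries on a log2 CPM scale and the y axis the log2 change of the 12 h wound over day 30. Red points (3518) were higher and blue points (2994) lower at an adjusted p under 0.05, and labelled genes are described in the text; the highest labelled change is that of Mmp13, at a log2 change of 8.76, and Krt14 lies near 0.

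Matrix proteases and the genes of cell movement were among the largest increases. Mmp13, a collagenase of migrating keratinocytes, stood at 415 and 882 CPM in the 12 h wound libraries and 2.94 and 0.241 CPM in the day 30 libraries (log2 change 8.76 ± 1.41, adjusted p = 0.00125). Mmp9, a gelatinase, stood at 104 and 239 CPM in the wound libraries, against 0.77 and 0.172 CPM at day 30 (log2 change 8.60 ± 1.15, adjusted p = 0.000387). Both wound libraries lay far above both day 30 libraries for either gene, with wound library 2 the higher of the pair. With any 1 library left out, the log2 change lay between 7.76 and 11.36 for Mmp13 and between 7.78 and 9.92 for Mmp9. Mmp10, a stromelysin, gave 21.6 and 53.4 CPM against 1.63 and 0.138 CPM (log2 change 5.50 ± 1.38); its adjusted p of 0.0121 became 0.0632 without wound library 2 and 0.0682 without day 30 library 2.

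Gjb2, which encodes the gap junction protein connexin 26, had 725 and 985 CPM in the wound libraries and 4.71 and 4.51 CPM at day 30 (log2 change 7.54 ± 1.03, adjusted p = 0.000423). The day 30 libraries were nearly equal for this gene, and both wound libraries were far above them. Itga5, the fibronectin-binding integrin alpha 5 that keratinocytes express when they migrate, had 64.8 and 116 CPM against 10.8 and 8.88 CPM (log2 change 3.20 ± 0.45, adjusted p = 0.000314). Several actin regulators had small errors and non-overlapping groups. Actn1, an actin cross-linker, stood at 364 and 458 CPM in the wound libraries and 60.3 and 57.8 CPM at day 30 (log2 change 2.80 ± 0.20). The formin Fmnl2, which extends actin filaments at the leading edge, stood at 63.8 and 84.1 CPM against 4.07 and 1.96 CPM (log2 change 4.63 ± 0.32). Fblim1 (migfilin), an adaptor between integrins and actin, stood at 21.8 and 25.8 CPM against 0.77 and 1.07 CPM (log2 change 4.68 ± 0.34); the adjusted p was 4.45e-06 for Fblim1, 4.4e-06 for Fmnl2 and 4.4e-06 for Actn1.

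Of 40 integrin, protease and migration genes tested, 21 rose and 4 fell, with a median log2 change of 0.86 against 0.02 over all genes. The number higher was 12 without wound library 2 and 11 without day 30 library 2. The urokinase receptor Plaur gave 22.5 and 38.0 CPM against 6.11 and 1.1 CPM (log2 change 3.10 ± 0.87, adjusted p = 0.0187), but 0.0974 and 0.0918 without wound library 2 or day 30 library 2. The 4 that fell were fibronectin (Fn1, log2 change -3.52 ± 0.45), the protease inhibitor Timp3 (-2.83 ± 0.28), integrin beta 5 (Itgb5, -1.79 ± 0.29) and the ephrin receptor Epha2 (-0.93 ± 0.30). The call of Epha2 was lost without wound library 1 (adjusted p = 0.17) and without day 30 library 1 (0.21). Itga6, an integrin of the basement membrane contacts and a sort marker, stood at 1385 and 1710.1 CPM in the wound libraries and 1736 and 1357 CPM at day 30, with groups that overlap.

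The stress keratins and small proline-rich proteins of the wound edge formed the list with the second highest median. Of 19 tested, 12 rose and none fell (median log2 change 3.18). Sprr2a2, Sprr2a3 and Serpinb3b lost their calls with a single library left out. Krt6b, a keratin of activated epidermis, stood at 2061 and 2282 CPM in the wound libraries and 12.4 and 1.89 CPM at day 30 (log2 change 8.26 ± 1.69, adjusted p = 0.00433). Other keratins of the list showed the same order. Krt17, which marks activated and appendage keratinocytes, had 4454 and 3944 CPM against 684 and 832 CPM (log2 change 2.47 ± 0.45, adjusted p = 0.00111). Krt6a had 5119 and 6389 CPM against 159 and 29.4 CPM (log2 change 5.93 ± 1.46, adjusted p = 0.0104), with an adjusted p of 0.0652 without day 30 library 2. Krt16 had 4126 and 4604 CPM against 538 and 423 CPM (log2 change 3.18 ± 0.86, adjusted p = 0.0149), and its call was lost without wound library 2 (0.0586), day 30 library 1 (0.0717) or day 30 library 2 (0.102). In each of these 4 keratins both wound libraries exceeded both day 30 libraries. For Krt6a and Krt6b the day 30 libraries themselves differed, with library 1 the higher.

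The Sprr2 proteins are cross-linked into the cornified envelope that stiffens surface cells. Sprr2h stood at 50.2 and 54.5 CPM in the wound libraries and 0.317 and 0.344 CPM at day 30 (log2 change 7.29 ± 1.21, adjusted p = 0.00131), and Sprr2d at 26.6 and 30.0 CPM against 0.317 and 0.241 CPM (log2 change 6.67 ± 0.97, adjusted p = 0.000557). Sprr2e had 5.54 and 7.34 CPM in the wound libraries and no read in either day 30 library, which makes it at least 110-fold higher when 3 counts over both day 30 libraries are taken as the floor. Members of this family, like Krt6a and Krt6b and the stefins, Hamp and the Gsdmc genes named below, have near-identical copies, so the split of reads between them is uncertain.

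Promoter sequences are shown for 2 of the most increased genes because both hold the AP-1 motif TGANTCA, the site that Fos and Jun family dimers bind. They are RefSeq windows on build GRCm38.p6 from 250 bases before to 50 bases after the annotated start, on the plus strand of chr9:7272264-7272563 for Mmp13 and of chr3:92385435-92385734 for Sprr2h, read 5′ to 3′ with the motif in capitals.
Mmp13: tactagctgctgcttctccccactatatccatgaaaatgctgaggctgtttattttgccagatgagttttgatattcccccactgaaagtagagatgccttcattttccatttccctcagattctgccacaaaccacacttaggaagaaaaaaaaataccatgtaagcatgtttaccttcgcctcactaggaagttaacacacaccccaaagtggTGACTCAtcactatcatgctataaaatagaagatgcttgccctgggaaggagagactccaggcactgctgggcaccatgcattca
Sprr2h: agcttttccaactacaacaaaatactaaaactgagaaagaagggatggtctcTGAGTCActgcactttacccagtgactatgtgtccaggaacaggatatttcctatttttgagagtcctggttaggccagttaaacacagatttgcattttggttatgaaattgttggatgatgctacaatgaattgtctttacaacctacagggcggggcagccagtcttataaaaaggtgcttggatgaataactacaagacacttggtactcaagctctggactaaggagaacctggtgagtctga
The motif starts 35 bases before the start site in Mmp13 and 198 bases before it in Sprr2h. Searched on both strands, it was found in 2 of the 12 windows available for the 15 most increased genes (16.7%) and in 7.81% of all 32851 windows. It also stood in 2 of 15 windows of the 15 most decreased genes (13.3%), those of Csrnp1 and Lor. A match describes the letters in the window and not binding.

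**Figure D2:**
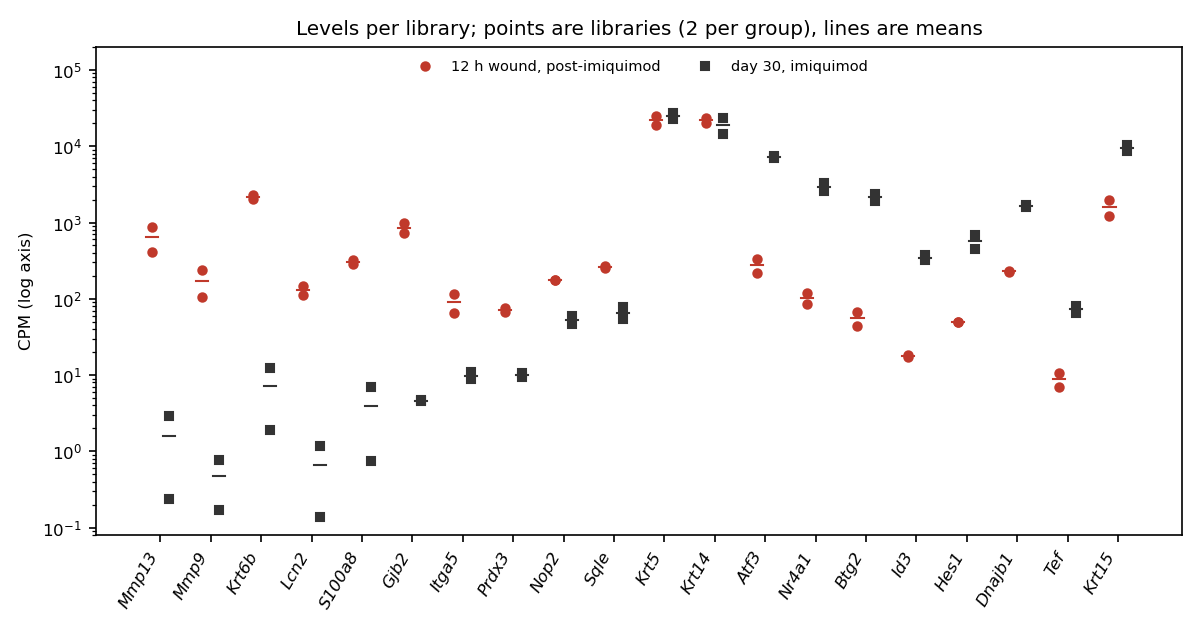
CPM on a log axis for 20 genes, with the 2 libraries of the 12 h wound group in red left of the 2 day 30 libraries in dark grey, and the group mean as a line. The groups do not overlap for 18 of them, and they overlap for Krt5 and Krt14; Mmp13, Mmp9, Krt6b, Lcn2 and S100a8 show the widest spread between the day 30 libraries.

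Some basal identity genes fell while the main basal keratins gave no call. Krt14, the partner of Krt5, had 23436 and 20348 CPM in the wound libraries and 23305 and 14628 CPM at day 30 (log2 change 0.21 ± 0.37, adjusted p = 0.695), and Krt5 gave a log2 change of -0.20 ± 0.33 (adjusted p = 0.665); the groups overlapped for both. Krt15, a keratin of quiescent basal and bulge cells, fell to 1966 and 1215 CPM in the wound libraries, against 10288 and 8732 CPM at day 30 (log2 change -2.58 ± 0.43, adjusted p = 0.000556). Lgr6, a Wnt-pathway receptor that marks epidermal stem cells, fell to 65.4 and 63.3 CPM, against 227 and 286 CPM (log2 change -1.99 ± 0.32, adjusted p = 0.000599). Id3, an inhibitor of helix-loop-helix factors and a BMP target, fell to 17.4 and 18.1 CPM, against 371 and 324 CPM (log2 change -4.29 ± 0.32, adjusted p = 6.99e-06). Over the list of 20 basal genes, 9 fell and 2 rose, with a median log2 change of -0.55. Of those that fell, Sox6, Dst, Lrig1 and Id1 lost their calls with a single library left out. The 2 that rose, Itgb1 (1.27 ± 0.37) and Itgb4 (0.69 ± 0.21), lost their calls without wound library 2 (adjusted p = 0.133 for Itgb1 and 0.121 for Itgb4) or day 30 library 2 (0.149 and 0.0874), and Itgb4 also without library 1 of either group.

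Of 25 suprabasal genes tested, 8 fell and none rose (median log2 change -1.27), and these calls depended on single libraries. The number lower was 1 without wound library 1, 2 without wound library 2, 0 without day 30 library 2 and 16 without both day 30 libraries numbered 1. Krt10, the first keratin of cells that leave the basal layer, had 1830.2 and 2973 CPM in the wound libraries and 8226 and 9023 CPM at day 30 (log2 change -1.84 ± 0.52, adjusted p = 0.0147; 0.116 without wound library 1 and 0.0592 without day 30 library 2). Loricrin (Lor), the main protein of the cornified envelope, had 1.49 and 4.89 CPM in the wound libraries, against 15.6 and 564 CPM at day 30 (log2 change -6.46 ± 2.20, adjusted p = 0.0458). Flg2, a filaggrin-family protein, had 0.245 and 0.386 CPM against 1.45 and 177 CPM, and Lce1m, of the late cornified envelope, had 0.686 and 0.601 CPM against 3.44 and 179.97 CPM. In all 3 cornified genes day 30 library 2 stood far above day 30 library 1. Without day 30 library 2 the adjusted p was 0.412 for Lor, 0.475 for Flg2 and 0.334 for Lce1m, and all 3 also missed the threshold without either wound library (adjusted p of 0.16 to 0.219). Mt4, a metallothionein of stratified epithelia, did not share that spread, with 7.57 and 6.91 CPM in the wound libraries and 125 and 112 CPM at day 30 (log2 change -4.03 ± 0.53, adjusted p = 0.000267).

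The antimicrobial and alarmin list had the highest median of the 23 pathway lists, at a log2 change of 4.13, with 13 of 23 genes higher and 1 lower. Without day 30 library 2 its median was 3.33, below 4.40 for the stress keratin list. S100a7a, Chil1, Stfa3 and Saa3 lost their calls with a single library left out. Lipocalin 2 (Lcn2), which withholds iron from bacteria, stood at 148 and 112 CPM in the wound libraries and 1.18 and 0.138 CPM at day 30 (log2 change 7.74 ± 0.88, adjusted p = 0.000143). S100a8 stood at 326 and 287 CPM in the wound libraries, against 7.06 and 0.757 CPM at day 30 (log2 change 6.33 ± 1.21, adjusted p = 0.00296). Its partner S100a9, with which it forms the alarmin calprotectin, stood at 335 and 289 CPM against 8.24 and 0.757 CPM (log2 change 6.15 ± 1.30, adjusted p = 0.00508). Both wound libraries lay above both day 30 libraries for all 3, and day 30 library 1 was the higher of its pair. The stefin Stfa1, a cysteine protease inhibitor, stood at 839 and 709 CPM against 8.01 and 1.79 CPM (log2 change 7.33 ± 1.21, adjusted p = 0.00133), and Stfa2 at 24.9 and 29.0 CPM against 0.136 and 0 CPM. Beta-defensin 3 (Defb3) had 1.94 and 2.96 CPM in the wound libraries and no read at day 30, which is at least 41.8-fold higher over the same floor. The gene that fell was Hamp, the iron hormone hepcidin (log2 change -5.10 ± 1.06).

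S100a8 and S100a9 are also neutrophil genes, so markers of other cell types were summed beside them. The summed level of 10 neutrophil markers was 828 and 716 CPM in the wound libraries and 17.7 and 1.86 CPM at day 30, and Cxcr2, S100a8 and S100a9 made up nearly all of it. The defining neutrophil genes Csf3r, Elane and Retnlg were at 0 in all 4 libraries, and Mpo, Ly6g and Camp were at most 0.0245 CPM. Cxcr2, the receptor for the neutrophil-attracting CXC chemokines, stood at 166 and 140.2 CPM in the wound libraries and 2.13 and 0.31 CPM at day 30 (log2 change 7.06 ± 0.95, adjusted p = 0.000388). Macrophage markers summed to 10.8 and 15.3 CPM in the wound libraries, against 2.31 and 2.44 CPM at day 30, mostly from the mannose receptor Mrc1 at 7.20 and 11.5 CPM against 0.0453 and 0 CPM; Csf1r and the C1q genes were at most 0.206 CPM. The fibroblast list summed to 1237 and 916 CPM in the wound libraries and 763 and 382 CPM at day 30, mostly from Postn at 691 and 459 CPM against 200 and 110 CPM and Thy1 at 423 and 349 CPM against 179 and 117 CPM. Other members had lower values, such as Sparc at 59.7 and 44.9 CPM against 163 and 113 CPM and Col6a1 at 3.80 and 4.21 CPM against 21.1 and 13.9 CPM, and the median log2 change of the 15 genes was -1.14.

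Langerhans and dendritic cell markers summed to 82.4 and 67.7 CPM in the wound libraries and 56.4 and 27.6 CPM at day 30, and melanocyte markers to 5.66 and 7.27 CPM against 18.7 and 13.5 CPM. The T cell list summed to 424 and 350.2 CPM against 181 and 118 CPM, nearly all from Thy1, with Cd4 at 0 in all 4 libraries. Endothelial, muscle and fat, and red blood cell markers summed to at most 4.71 CPM a list in any library. Markers of the infundibulum and sebaceous gland summed to 5192 and 4898 CPM in the wound libraries, against 2201 and 2334 CPM at day 30, of which Krt17 made 4454 and 3944 CPM against 684 and 832 CPM. The other members of that list ran the other way on balance, with 3 of the 10 lower, Krt17 alone higher and a median log2 change of -0.68. Markers of the bulge summed to 2755 and 1792 CPM in the wound libraries, against 10748 and 9016 CPM, mostly Krt15. Of 5 nuclear noncoding RNAs, whose level can follow RNA quality, 2 fell and none rose: Malat1 stood at 208 and 231 CPM in the wound libraries and 822 and 866 CPM at day 30, and Kcnq1ot1 at 3.72 and 5.29 CPM against 16.1 and 13.2 CPM. Neat1 stood at 747 and 816 CPM against 591 and 604 CPM. The summed level of the 5, at 1479 and 1783 CPM against 1429 and 3003 CPM, holds Xist, which was near 0 in day 30 library 1. What share of the changes goes with these markers was not tested. In bulk samples a larger share of cells of a type and more RNA per cell cannot be told apart.

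Among secreted signals, Cxcl1, Cxcl2, Cxcl3 and Cxcl5, which draw in neutrophils, rose, together with Ccl20, Csf1 and Csf3. Of these, Cxcl1 and Cxcl2 lost their calls without wound library 1 (adjusted p = 0.0572 and 0.0721), wound library 2 (0.0714 and 0.122) or day 30 library 2 (0.104 and 0.181), and Csf1 without wound library 1 (0.161), wound library 2 (0.0944) or day 30 library 1 (0.233). Of 17 chemokines and colony-stimulating factors tested, 7 rose and 4 fell (median log2 change 0.44); the number higher was 4 without wound library 1, 3 without wound library 2 and 4 without day 30 library 2, and the number lower was 1 without wound library 2 or without day 30 library 2. Csf3, which encodes the granulocyte factor G-CSF, stood at 13.2 and 24.5 CPM in the wound libraries and 0.0905 and 0.103 CPM at day 30 (adjusted p = 0.000112). Cxcl3 stood at 6.69 and 10.9 CPM against 0.136 and 0 CPM (adjusted p = 0.000434). The near absence of day 30 reads leaves the size of these 2 changes poorly bounded. Cxcl5 had 0.171 and 0.687 CPM in the wound libraries and no read at day 30, at least 7.32-fold higher over the floor, with an adjusted p of 0.0117 that became 0.0781 without wound library 2 and 0.0709 without day 30 library 2. The 4 that fell were Cxcl12 (-1.73 ± 0.38), Ccl27a (-1.56 ± 0.41), Cxcl10 (-1.16 ± 0.34) and Cx3cl1 (-0.70 ± 0.24); of these, Cxcl12 alone passed the threshold with every single library left out.

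The cytokines of the IL-20 subfamily, which act on keratinocytes through STAT3, were higher. Il19 stood at 8.67 and 13.5 CPM in the wound libraries and 0.0905 and 0 CPM at day 30 (adjusted p = 0.000384). Il24 stood at 58.5 and 98.5 CPM against 8.33 and 1.89 CPM (log2 change 3.97 ± 0.97, adjusted p = 0.0108; 0.0589 without wound library 2 and 0.0628 without day 30 library 2). Stat3 itself stood at 774 and 778 CPM against 470.0 and 459.7 CPM (log2 change 0.74 ± 0.18, adjusted p = 0.00706). Il6 moved the other way, at 0.0245 and 0.444 CPM in the wound libraries and 10.7 and 15.2 CPM at day 30 (log2 change -5.63 ± 0.83, adjusted p = 0.000338). Cish, a feedback inhibitor of cytokine receptors, fell to 30.7 and 39.8 CPM, against 228 and 361 CPM (log2 change -3.06 ± 0.24, adjusted p = 6.99e-06). Of 21 genes of the STAT3 axis, 7 rose and 8 fell (median log2 change -0.24), with 2 higher without wound library 2 and 4 without day 30 library 1.

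Of 24 genes of the IL-1 family and inflammasome tested, 2 rose and 7 fell (median log2 change -0.08), with 4 lower without either wound library. The 2 that rose were gasdermin C, a pore-forming protein (Gsdmc, 152 and 143 CPM in the wound libraries against 4.89 and 7.09 CPM at day 30, log2 change 4.61 ± 0.58, adjusted p = 0.000215), and its paralogue Gsdmc2 (2.77 ± 0.57). The decoy receptor Il1r2 fell to 32.0 and 18.6 CPM, against 245 and 204 CPM (log2 change -3.15 ± 0.80, adjusted p = 0.0128), and lost its call without wound library 1 (0.0571) or 2 (0.105). Il1b stood at 0.441 and 0.844 CPM in the wound libraries and 0.905 and 1.2 CPM at day 30 (log2 change -0.70 ± 0.58, adjusted p = 0.37). Aim2, a sensor of cytosolic DNA, stood at 11.7 and 8.2 CPM against 9.96 and 10.6 CPM (log2 change -0.05 ± 0.29, adjusted p = 0.904), and Casp1, the protease it activates, at 38.4 and 30.8 CPM against 30.7 and 45.7 CPM (log2 change -0.15 ± 0.27, adjusted p = 0.703). The groups overlapped for Aim2 and Casp1, and neither gene's change could be told from 0.

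The immediate early genes fell as a list. Of the 25 members tested, AP-1 subunits included, 23 fell and none rose (median log2 change -2.47), and 21 to 23 fell with any 1 library left out. Atf3, a stress-induced factor that pairs with Jun proteins, fell to 218 and 332 CPM in the wound libraries, against 7484 and 6939.9 CPM at day 30 (log2 change -4.71 ± 0.56, adjusted p = 8.13e-05). The orphan nuclear receptor Nr4a1 fell to 84.8 and 119.6 CPM, against 2603 and 3287 CPM (log2 change -4.85 ± 0.65, adjusted p = 0.000233). Its relatives Nr4a2 and Nr4a3 fell too, Nr4a3 to 2.65 and 2.79 CPM, against 146 and 236 CPM (log2 change -6.13 ± 0.99, adjusted p = 0.00123). Btg2, an antiproliferative gene, fell to 44.5 and 66.8 CPM, against 1924 and 2356 CPM (log2 change -5.26 ± 0.46, adjusted p = 1.45e-05). Each of these genes was high in both day 30 libraries and low in both wound libraries, with no overlap. Unwounded control skin was also high at day 30, at 8793 and 6283 CPM for Atf3 and 2135 and 2767 CPM for Btg2. Control skin sampled at day 6, also unwounded, was lower than that, at 3034 and 2334 CPM for Atf3 and 559 and 366 CPM for Btg2. The part of the day 30 level in these decreases was not tested.

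The AP-1 subunits themselves were lower too. Fosl1 (Fra-1), the subunit most often tied to migrating keratinocytes, fell to 76.4 and 117 CPM, against 767 and 749 CPM (log2 change -2.97 ± 0.55, adjusted p = 0.00187). Fos fell to 987 and 1479 CPM, against 7149 and 6744 CPM (log2 change -2.49 ± 0.33), and Jun to 521 and 846 CPM, against 2483 and 2914 CPM (log2 change -1.98 ± 0.36). Ier3 and Phlda1 were the 2 members with no call. Klf2, a quiescence factor of the same list, fell to 3.16 and 6.65 CPM, against 107 and 156 CPM (log2 change -4.73 ± 0.56, adjusted p = 0.000139), and the nuclear protein Csrnp1 to 45.9 and 61.6 CPM, against 783 and 741 CPM (log2 change -3.82 ± 0.54, adjusted p = 0.000373). Decreases of like size were seen in genes of other functions. Gem, a small GTPase that restrains calcium channels, fell to 4.48 and 3.83 CPM, against 149 and 119 CPM (log2 change -5.02 ± 0.68), and thrombospondin 1 (Thbs1), an activator of latent TGF-beta, to 349.9 and 339.9 CPM, against 4929 and 5475 CPM (log2 change -3.91 ± 0.72). Ch25h, which makes 25-hydroxycholesterol, fell to 1.4 and 0.744 CPM, against 29.7 and 32.6 CPM (log2 change -4.89 ± 0.64, adjusted p = 0.000211).

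The promoters of 2 of these genes are shown because they hold the full cAMP response element TGACGTCA, which CREB and ATF factors bind and which differs from the AP-1 motif in its spacing. They are on the minus strand of chr1:134079106-134079405 for Btg2 and of chr19:34475099-34475398 for Ch25h on GRCm38.p6, from RefSeq, written 5′ to 3′ along the gene with the element in capitals.
Btg2: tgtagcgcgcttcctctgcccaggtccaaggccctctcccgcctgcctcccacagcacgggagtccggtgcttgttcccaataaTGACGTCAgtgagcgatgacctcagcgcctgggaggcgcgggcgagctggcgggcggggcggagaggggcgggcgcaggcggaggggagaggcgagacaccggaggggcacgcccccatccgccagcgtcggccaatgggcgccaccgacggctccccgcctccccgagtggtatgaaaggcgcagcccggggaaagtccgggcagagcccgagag
Ch25h: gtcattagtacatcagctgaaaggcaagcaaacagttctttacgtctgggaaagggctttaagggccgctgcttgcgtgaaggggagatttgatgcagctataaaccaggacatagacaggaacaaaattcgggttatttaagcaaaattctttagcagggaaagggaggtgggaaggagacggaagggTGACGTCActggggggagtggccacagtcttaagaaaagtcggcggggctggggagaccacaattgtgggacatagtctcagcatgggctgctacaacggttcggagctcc
The element starts 166 bases before the start site in Btg2 and 61 bases before it in Ch25h. It was found in 2 of the 15 promoter windows available for the 15 most decreased genes (13.3%), in none of the 12 windows for the 15 most increased genes and in 1.79% of all windows. Among the 23 immediate early genes that fell, 18 had a window and 3 of them, Btg2, Dusp1 and Maff, held it. None of the 24 windows of the immediate early genes that fell held the AP-1 motif. Csrnp1, whose window held it, is not among those genes. With windows this few, the shares are descriptions.

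Targets of NF-kB were called in both directions. The share of the list that rose, against 20.3% of all genes, does not set it apart. Of 25 tested, 4 rose and 8 fell (median log2 change -0.42), with 2 higher without wound library 1, wound library 2 or day 30 library 2. Tnfaip3 (A20), the feedback inhibitor of NF-kB, fell to 70.8 and 90.4 CPM in the wound libraries, against 756 and 1489 CPM at day 30 (log2 change -3.80 ± 0.49, adjusted p = 0.000166). Irf1 fell to 33.6 and 21.7 CPM, against 319 and 229.7 CPM (log2 change -3.32 ± 0.22, adjusted p = 4.09e-06), and Cd83 to 0.196 and 0.129 CPM, against 3.62 and 3.72 CPM (log2 change -4.51 ± 0.57, adjusted p = 9.28e-05). Tnfaip2 rose to 5.44 and 3.79 CPM, against 0.77 and 0.895 CPM (log2 change 2.46 ± 0.34, adjusted p = 0.000161); the other 3 that rose were Bcl3 (1.27 ± 0.39), Sod2 (0.95 ± 0.15) and Nfkb1 (0.43 ± 0.15), and Bcl3 and Nfkb1 lost their calls without wound library 1 (adjusted p = 0.0736 and 0.0888), wound library 2 (0.113 and 0.216) or day 30 library 2 (0.179 and 0.0776), and Nfkb1 also without day 30 library 1 (0.213).

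Among interferon-response genes, 7 of 28 rose and 4 fell (median log2 change 0.78), with 3 higher without wound library 1 or day 30 library 1, 4 higher without day 30 library 2, and 2 lower without wound library 2. Rtp4, a receptor chaperone induced by interferon, rose to 3.09 and 1.56 CPM in the wound libraries, against 0.362 and 0.413 CPM at day 30 (log2 change 2.56 ± 0.59, adjusted p = 0.00468). Cmpk2 fell to 0.637 and 0.215 CPM, against 1.81 and 2.37 CPM (adjusted p = 0.0168), with 0.143 without wound library 2 and 0.0754 without day 30 library 2. The share of the list that rose, against 20.3% of all genes, does not set it apart.

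In the TGF-beta and activin list 6 of 23 genes rose and 8 fell (median log2 change -0.09), with 5 lower without wound library 1. Inhba, the activin A subunit that is induced in wounds, stood at 5.12 and 14.3 CPM in the wound libraries and 0.272 and 0.206 CPM at day 30 (log2 change 5.35 ± 0.71, adjusted p = 0.000138). Ltbp1, which holds TGF-beta in the matrix, stood at 44.7 and 64.3 CPM against 10.8 and 7.3 CPM (log2 change 2.59 ± 0.49, adjusted p = 0.00189). The ligand Tgfb3 fell to 0.955 and 0.901 CPM, against 6.07 and 7.67 CPM (log2 change -2.89 ± 0.39, adjusted p = 0.000139). Acvrl1, a receptor of the same superfamily and 1 of the 10 increases with the lowest p, stood at 91.1 and 115 CPM in the wound libraries, against 6.7 and 12.0 CPM at day 30 (log2 change 3.46 ± 0.24, adjusted p = 4.4e-06).

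EGF receptor ligands did not move as a block. The shares of their list that rose and fell, against 20.3% and 17.3% of all genes, do not set it apart. Of 25 ligand, growth factor and feedback genes, 4 rose and 4 fell, and both counts depended on single libraries: the number higher was 1 without wound library 2 or day 30 library 2, and the number lower was 0 without wound library 1, 1 without wound library 2, 2 without day 30 library 1 and 1 without day 30 library 2. Tgfa stood at 245 and 352 CPM in the wound libraries and 80.3 and 25.1 CPM at day 30 (log2 change 2.51 ± 0.63, adjusted p = 0.0106; 0.0628 without wound library 2 and 0.0629 without day 30 library 2). Areg stood at 80.4 and 163 CPM against 35.6 and 59.0 CPM (log2 change 1.37 ± 0.80, adjusted p = 0.213), and Hbegf at 176 and 304 CPM against 260.4 and 264 CPM (log2 change -0.13 ± 0.43, adjusted p = 0.846). The other 3 that rose, Vegfa (1.43 ± 0.48), Fgfbp1 (1.14 ± 0.24) and Spry2 (0.60 ± 0.20), and the 4 that fell, Dusp4 (-2.44 ± 0.65), Errfi1 (-2.09 ± 0.58), Spry1 (-1.78 ± 0.52) and Dusp5 (-1.59 ± 0.54), all lost their calls without at least 1 library, except Fgfbp1.

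Notch and Wnt genes fell where they changed, with 8 of 25 lower, none higher and a median log2 change of -0.26; 5 were lower without wound library 1, wound library 2 or day 30 library 1. Hes1, the main Notch target, fell to 49.5 and 49.5 CPM in the wound libraries, against 686 and 444 CPM at day 30 (log2 change -3.51 ± 0.24, adjusted p = 4.4e-06). Hey1, another Notch target, fell to 0.122 and 0.0859 CPM, against 1.81 and 0.929 CPM (log2 change -3.70 ± 0.64, adjusted p = 0.000674). The ligand Wnt10b fell to 2.89 and 1.3 CPM, against 11.1 and 16.7 CPM (log2 change -2.75 ± 0.49, adjusted p = 0.001). Rspo3, a secreted amplifier of Wnt signalling, fell to 1.2 and 0.715 CPM, against 15.0 and 22.8 CPM (log2 change -4.33 ± 0.71, adjusted p = 0.000819). The wound libraries lay below the day 30 libraries for each of these 4 genes.

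**Figure D3:**
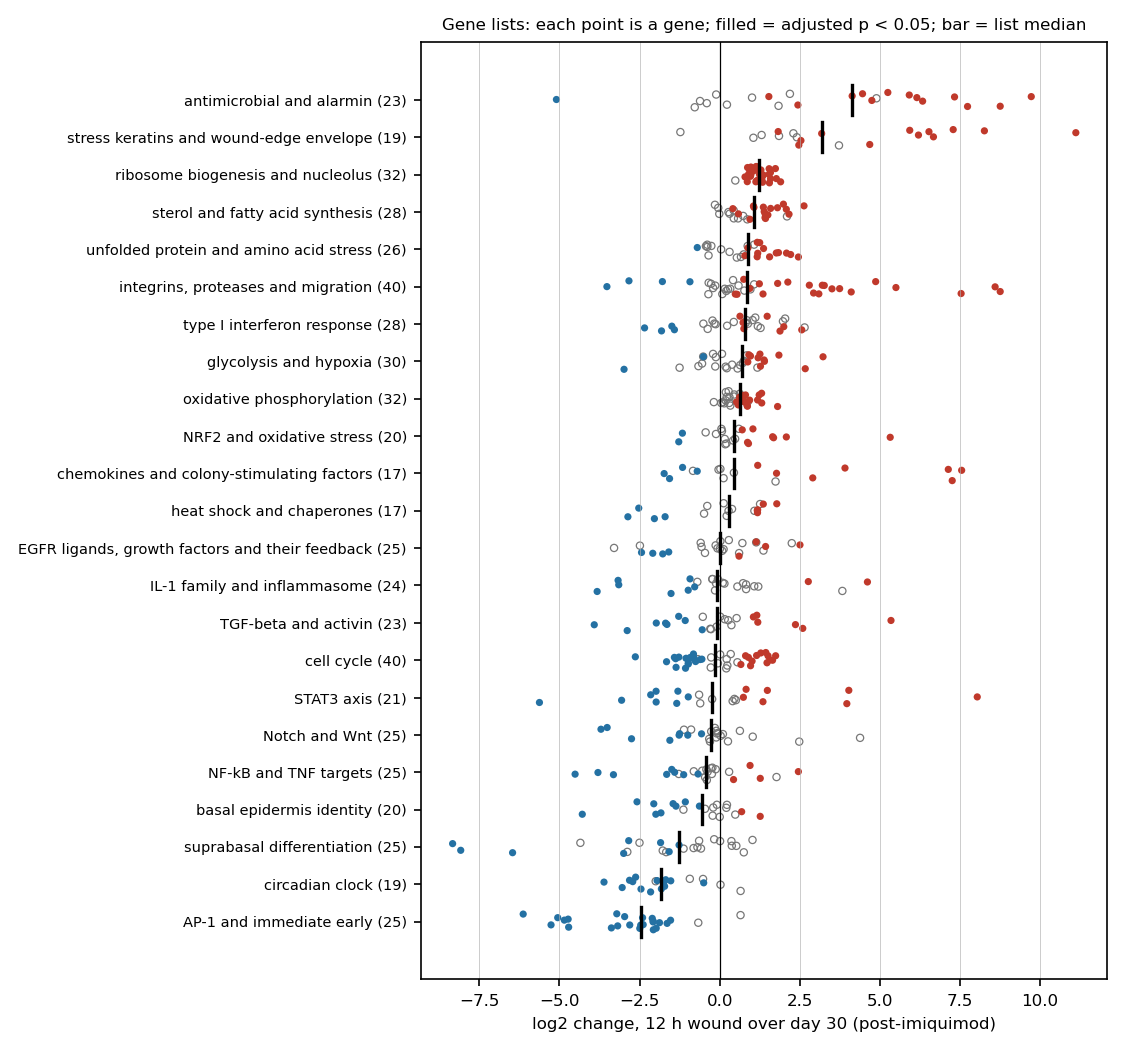
Log2 change of the 12 h wound over day 30 for every tested gene of 23 pathway lists, ordered by the list median (black bar), with the number tested in parentheses. Filled points passed an adjusted p of 0.05 (red higher, blue lower) and open points did not; the medians run from 4.13 for the antimicrobial list to -2.47 for the immediate early list.

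Genes that make ribosomes rose together. Of 32 ribosome biogenesis genes, 31 rose and none fell, with a median log2 change of 1.22, and 26 to 32 rose with any 1 library left out. Nop2, a methyltransferase for ribosomal RNA, stood at 175 and 178 CPM in the wound libraries and 59.5 and 46.3 CPM at day 30 (log2 change 1.74 ± 0.20, adjusted p = 5.39e-05). Utp4, part of the complex that processes the small-subunit RNA, stood at 155 and 169.6 CPM against 48.7 and 38.1 CPM (log2 change 1.90 ± 0.28, adjusted p = 0.000276). Rrs1 stood at 94.8 and 112 CPM against 32.1 and 28.8 CPM (log2 change 1.77 ± 0.19) and Wdr12 at 70.2 and 71.7 CPM against 29.0 and 18.3 CPM (log2 change 1.59 ± 0.18), both factors of the large subunit. The member without a call was Nop10.

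Nuclear genes of oxidative phosphorylation were higher in 17 of 32 cases and lower in none (median log2 change 0.62), with 8 higher without day 30 library 2. Ndufa4, a small subunit of the respiratory chain, stood at 296 and 275 CPM in the wound libraries and 90.0 and 73.2 CPM at day 30 (log2 change 1.81 ± 0.13, adjusted p = 5.09e-06), and cytochrome c1 (Cyc1) at 293 and 305 CPM against 140.4 and 114 CPM (log2 change 1.23 ± 0.15, adjusted p = 6.43e-05). The increase with the lowest p of all genes was Prdx3, a peroxidase of the mitochondrial matrix, at 66.9 and 75.5 CPM against 10.7 and 9.46 CPM (log2 change 2.82 ± 0.13, adjusted p = 2.31e-07). The summed level of 9 mitochondrially encoded genes was 14145 and 16814 CPM in the wound libraries and 22764 and 14460 CPM at day 30, with overlapping groups, and 3 of the 9 (mt-Co2, mt-Co3 and mt-Atp6) held no read in any of the 4 libraries.

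Of 26 genes of the unfolded protein and amino acid stress response, 13 rose and 1, Atf4 (-0.70 ± 0.23), fell; the number lower was 0 without wound library 1, wound library 2 or day 30 library 1 and 2 without day 30 library 2. Mthfd2, an enzyme of mitochondrial one-carbon metabolism, rose to 32.7 and 34.1 CPM, against 8.78 and 3.51 CPM (log2 change 2.46 ± 0.39, adjusted p = 0.000554). Aldh18a1, of proline synthesis, rose to 130.4 and 128 CPM, against 35.1 and 25.8 CPM (log2 change 2.09 ± 0.25, adjusted p = 6.48e-05). Of the chaperones, 5 of 17 rose and 4 fell, with 9 higher without both day 30 libraries numbered 1. The mitochondrial chaperonin Hspd1 rose to 235 and 244 CPM, against 84.7 and 54.6 CPM (log2 change 1.78 ± 0.20, adjusted p = 4.78e-05), as did its cofactor Hspe1 (1.36 ± 0.21), Hsph1 (1.18 ± 0.27), Ahsa1 (1.18 ± 0.18) and Chordc1 (1.17 ± 0.13). Dnajb1, a heat-shock cochaperone, fell to 231 and 226 CPM, against 1603 and 1722 CPM (log2 change -2.87 ± 0.30, adjusted p = 2.77e-05). The small heat-shock proteins Hspb8 (-2.53 ± 0.19) and Hspb1 (-2.04 ± 0.23) fell too, as did Dnajb4 (-1.70 ± 0.27).

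Sterol and fatty acid synthesis genes rose in 17 of 28 cases and fell in none, with a median log2 change of 1.06. The median lay between 0.98 and 1.19 with any 1 library left out, and some members lost their calls. Sqle, squalene epoxidase, stood at 252 and 269.7 CPM in the wound libraries and 54.4 and 76.9 CPM at day 30 (log2 change 1.99 ± 0.36, adjusted p = 0.00125). Lss, which closes the sterol rings, stood at 149.9 and 148 CPM against 30.1 and 36.4 CPM (log2 change 2.16 ± 0.23, adjusted p = 3.25e-05), and Mvd, of the mevalonate pathway, at 55.8 and 47.2 CPM against 5.3 and 11.2 CPM (log2 change 2.63 ± 0.56, adjusted p = 0.00424). Wound and day 30 libraries did not overlap for these 3 genes. Hmgcs1, an early enzyme of the pathway, gave no call, at 497 and 503 CPM against 429 and 397 CPM.

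Of 20 NRF2 and oxidative stress genes, 8 rose and 2 fell, with 5 higher without day 30 library 2 and 1 lower without wound library 2 or day 30 library 1. Slc7a11, the cystine importer, rose to 27.7 and 33.8 CPM, against 1.22 and 0.379 CPM (log2 change 5.32 ± 0.57, adjusted p = 6.43e-05). Nqo1, a quinone reductase, rose to 52.5 and 39.9 CPM, against 14.0 and 14.8 CPM (log2 change 1.68 ± 0.21, adjusted p = 9.16e-05), and Gclm, of glutathione synthesis, to 40.1 and 48.0 CPM, against 13.6 and 14.4 CPM (log2 change 1.65 ± 0.14, adjusted p = 1.08e-05). The 2 that fell were Pir (-1.28 ± 0.26) and the ferritin light chain Ftl1 (-1.16 ± 0.29). Gsta4, a glutathione transferase for lipid aldehydes and 1 of the 15 largest increases, stood at 679 and 703 CPM in the wound libraries and 8.51 and 1.1 CPM at day 30 (log2 change 7.20 ± 1.34, adjusted p = 0.00273).

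Glycolysis and hypoxia genes were higher in 11 of 30 cases and lower in 2 (median log2 change 0.68). The number higher was 4 without wound library 1, 6 without wound library 2 and 2 without day 30 library 2, and the number lower was 0 without any 1 of the 4 libraries. Car9, a carbonic anhydrase induced by hypoxia, stood at 23.6 and 20.3 CPM in the wound libraries and 5.43 and 1.58 CPM at day 30 (log2 change 2.67 ± 0.70, adjusted p = 0.0133; 0.0578 without wound library 1 and 0.091 without day 30 library 2). The 2 that fell were Adm, a hypoxia-induced vasodilator peptide at 3.26 and 4.05 CPM against 30.2 and 27.9 CPM, and Pdk1 (-0.51 ± 0.18).

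Cell cycle genes moved in both directions. Of 40 tested, 13 rose and 17 fell (median log2 change -0.16). Among those that rose, Ccne1, the cyclin E1 that drives entry into S phase, stood at 11.7 and 9.79 CPM in the wound libraries and 4.12 and 2.31 CPM at day 30 (log2 change 1.75 ± 0.31, adjusted p = 0.000933), and Mcm3, of the replicative helicase, at 122 and 103 CPM against 45.3 and 26.7 CPM (log2 change 1.65 ± 0.30, adjusted p = 0.0013). All 6 Mcm2 to Mcm7 genes rose, with log2 changes of 0.96 to 1.65, although Mcm5 and Mcm6 lost their calls without day 30 library 2 (adjusted p = 0.0914 and 0.0727) and Mcm5 also without wound library 1 (0.0615). Mki67, a marker of cycling cells that peaks in mitosis, fell to 85.1 and 66.0 CPM, against 189.5 and 176 CPM (log2 change -1.27 ± 0.27, adjusted p = 0.00285), together with Ccnb2 (-1.36 ± 0.25) and Cenpe (-1.41 ± 0.31), which encode a mitotic cyclin and a kinetochore motor. The inhibitor Cdkn1a (p21) fell to 228 and 269 CPM, against 869 and 698 CPM (log2 change -1.66 ± 0.29, adjusted p = 0.000838). The number higher was 8 without day 30 library 2, and the number lower was 8 without wound library 2 or day 30 library 1.

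The circadian list fell. Of 19 clock genes tested, 14 fell and none rose (median log2 change -1.82), and 11 to 13 fell with any 1 library left out. The output factor Tef stood at 10.7 and 6.95 CPM in the wound libraries and 80.4 and 64.6 CPM at day 30 (log2 change -3.04 ± 0.42, adjusted p = 0.000304). Hlf, of the same family, stood at 14.3 and 13.7 CPM against 77.3 and 119.6 CPM (log2 change -2.81 ± 0.55, adjusted p = 0.00287), and the repressor Bhlhe40 at 121 and 125 CPM against 775 and 837 CPM (log2 change -2.71 ± 0.30, adjusted p = 4.39e-05). Arntl (Bmal1), the core activator, changed little, at 74.0 and 68.0 CPM against 94.7 and 106 CPM (log2 change -0.50 ± 0.14, adjusted p = 0.014), and lost its call without wound library 2 (0.0836) or day 30 library 2 (0.083). Per2 stood at 1.22 and 0.715 CPM against 3.53 and 2.03 CPM (adjusted p = 0.048), and each of the 4 single-library omissions ended its call. The E-box CACGTG, which the Clock and Bmal1 pair binds, was in 3 of 15 promoter windows of the clock genes that fell (Per1 and Tef). It was in 7.15% of all windows, and in 5 of 24 windows (20.8%) of the immediate early genes that fell. The D-box TTANGTAA was in 1 of the 15 clock windows (Per3), against 2.32% of all windows. The labels give no hour of the day for the harvests, so the wound and the time of day cannot be told apart in these genes.

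The remaining leading genes belong to no list. Serpina3n, a serine protease inhibitor, stood at 194 and 113 CPM in the wound libraries and 1.54 and 0.516 CPM at day 30 (log2 change 7.28 ± 0.48, adjusted p = 5.89e-06). Ddah1, which breaks down an inhibitor of nitric oxide synthase, stood at 38.5 and 29.1 CPM against 0.543 and 0.344 CPM (log2 change 6.27 ± 0.74, adjusted p = 0.000116). Cdhr1, a cadherin best known from photoreceptors, stood at 41.9 and 45.8 CPM against 0.498 and 0.206 CPM (log2 change 7.01 ± 0.72), and the secreted protein Lgi2 at 45.4 and 54.5 CPM against 0.724 and 0.654 CPM (log2 change 6.18 ± 0.56). Both wound libraries exceeded both day 30 libraries for all 4. The changes with the lowest p and small spread also included Fam167a (3.49 ± 0.23), guanine deaminase (Gda, 3.10 ± 0.22) and the calcium-binding protein Nucb2 (2.07 ± 0.15), all higher in the wound cells. Those lower with the lowest p included the golgin Gcc1 (-2.75 ± 0.16), the hyaluronan-linked protein Itih5 (-3.55 ± 0.27), the vitamin B12 carrier Tcn2 (-2.35 ± 0.20), the GABA-B receptor subunit Gabbr1 (-2.30 ± 0.19) and Taf7, of the general transcription factor TFIID (-1.80 ± 0.15).

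The wound effect was then set against that in control skin, in which 2 libraries 12 h after wounding were compared with 2 unwounded day 30 libraries and which shares no library with the comparison above. Day 30 control library 1 also went against its female label, with 0 reads of Xist and 7847 of Y-linked genes. In the test of the difference of the 2 wound effects by edgeR, 0 of 17299 genes (0%) passed an adjusted p of 0.05; DESeq2 called 1, and edgeR without a filter on low counts called 69. An unadjusted p under 0.05 was found for 503 genes, where 865 would be 0.05 of those tested. That number was 1305 without day 30 control library 2, 770 without day 30 control library 1, 307 without control wound library 2 and 1417 with a replicate block within each time point, and none of these 4 fits gave an adjusted call. Of the 6512 genes called in post-imiquimod skin, 4488 were also called in control skin, 4487 of them in the same direction; these were 68.9% of the genes called in post-imiquimod skin and 84.2% of the 5328 called in control skin. In control skin 16.5% of genes were higher and 14.3% lower. Across genes the 2 effects had a Pearson correlation of 0.798, and genes are not independent replicates. Between the 2 skins, libraries of the same number had correlated deviations from their group means, at 0.452 at day 30 and 0.323 at 12 h. The 2 wound comparisons may therefore not be independent, and what the skins share by time of collection was not tested.

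**Figure D4:**
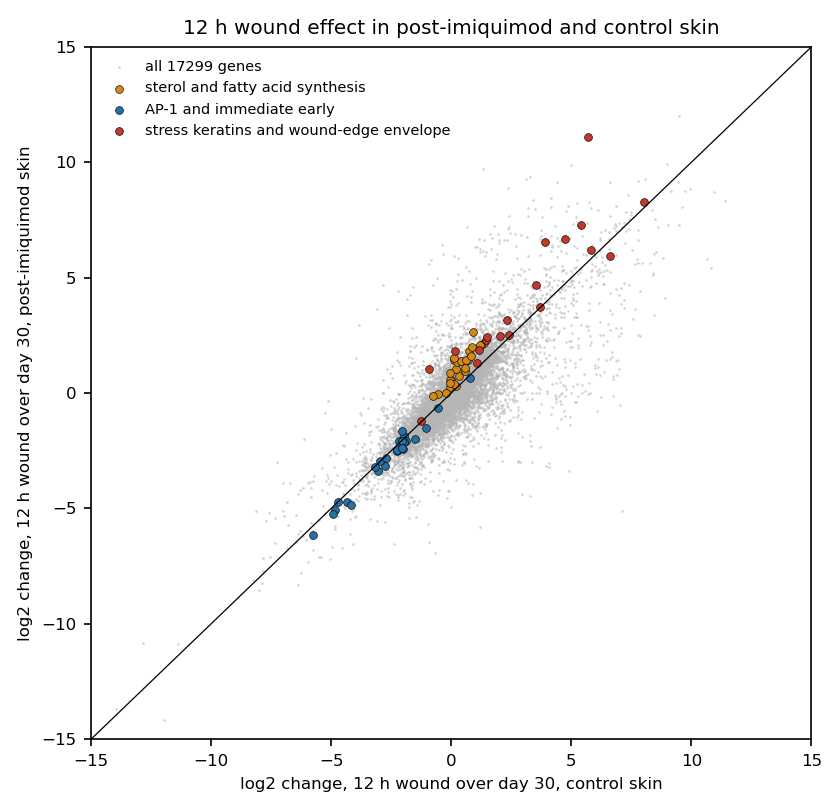
Each point is a gene, with its log2 change 12 h after wounding over day 30 in control skin on the x axis and in post-imiquimod skin on the y axis; the line marks equal effects. The immediate early genes lie near the line. Of the 28 sterol and fatty acid synthesis genes, 12 lie above it with an unadjusted p of the difference under 0.05.

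For single genes, the difference is the log2 wound effect in post-imiquimod skin minus that in control skin. It was -0.42 ± 1.75 for Mmp13, 0.24 ± 1.82 for Krt6b, -0.36 ± 0.68 for Atf3 and -0.79 ± 0.40 for Id3, each within 2 standard errors of 0. S100a8 reached 326 and 287 CPM in post-imiquimod wounds and 54.5 and 54.6 CPM in control wounds, beside day 30 levels of 7.06 and 0.757 CPM after imiquimod and 5.06 and 1.15 CPM after control cream; the difference of effects was 2.13 ± 1.47 (unadjusted p = 0.179). Aim2 had 11.7 and 8.2 CPM in post-imiquimod wounds and 2.46 and 1.79 CPM in control wounds, and 9.96 and 10.6 CPM in unwounded skin after imiquimod against 1.14 and 1.18 CPM after control cream. The libraries of the 2 skins did not overlap with or without a wound, a difference in level that was not tested here, and the difference of wound effects was -0.92 ± 0.44 (unadjusted p = 0.0591). The lowest unadjusted p among the 141 named genes was that of Gabbr1, at 0.000331 for a difference of -1.25 ± 0.26 (adjusted p = 1.00). With 2 libraries a group these intervals are wide, and a p above the threshold does not show equal effects.

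The sterol and fatty acid list held the most genes with an unadjusted difference, 12, against 0 to 2 in each of the other 22 lists. All 12 of its 28 genes with an unadjusted p under 0.05 had the larger wound effect in post-imiquimod skin, against 503 of all 17299 genes; no adjusted p passed. Sqle differed by 1.13 ± 0.49 (unadjusted p = 0.0404), Mvd by 1.71 ± 0.75 (unadjusted p = 0.0446) and Lss by 0.80 ± 0.31 (unadjusted p = 0.023). At 12 h, Sqle had 252 and 269.7 CPM in post-imiquimod wounds and 257 and 232 CPM in control wounds. At day 30 it had 54.4 and 76.9 CPM in imiquimod skin and 78.6 and 191 CPM in control skin, where both libraries lay above the imiquimod libraries and library 2 by far the most. The part of that library in the difference was not tested.

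An earlier time point was sampled 6 h after wounding of post-imiquimod skin, with 2 libraries. Its comparison uses the same day 30 libraries, so the 2 sets of changes are not independent and are given side by side only; 20.1% of genes were higher and 18.6% lower at 6 h. Mmp9 had 0.77 and 0.172 CPM at day 30, 9.07 and 5.73 CPM at 6 h and 104 and 239 CPM at 12 h, and Mmp13 had 2.94 and 0.241 CPM at day 30, 120.3 and 148 CPM at 6 h and 415 and 882 CPM at 12 h. Itga5 had 10.8 and 8.88 CPM at day 30, 37.7 and 42.3 CPM at 6 h and 64.8 and 116 CPM at 12 h. In these 3 genes both 12 h libraries lay above both 6 h libraries. Il19 had 0.0905 and 0 CPM at day 30, 10.0 and 35.7 CPM at 6 h and 8.67 and 13.5 CPM at 12 h, and S100a8 had 7.06 and 0.757 CPM at day 30, 141 and 602 CPM at 6 h and 326 and 287 CPM at 12 h. For S100a8 the 6 h libraries differed widely and spanned the 12 h values. Nop2 had 59.5 and 46.3 CPM at day 30, 222 and 283 CPM at 6 h and 175 and 178 CPM at 12 h, so both 6 h libraries were above both 12 h libraries. Lss had 30.1 and 36.4 CPM at day 30, 51.3 and 56.1 CPM at 6 h and 149.9 and 148 CPM at 12 h. Tef had 80.4 and 64.6 CPM at day 30, 50.7 and 26.1 CPM at 6 h and 10.7 and 6.95 CPM at 12 h. Both genes had 12 h libraries farther from day 30 than the 6 h libraries. The sterol and fatty acid list counted 2 higher and 3 lower at 6 h and 17 higher and 0 lower at 12 h. The interferon list counted 2 higher and 6 lower at 6 h and 7 higher and 4 lower at 12 h. The cell cycle list counted 4 higher and 8 lower at 6 h and 13 higher and 17 lower at 12 h.

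**Figure D5:**
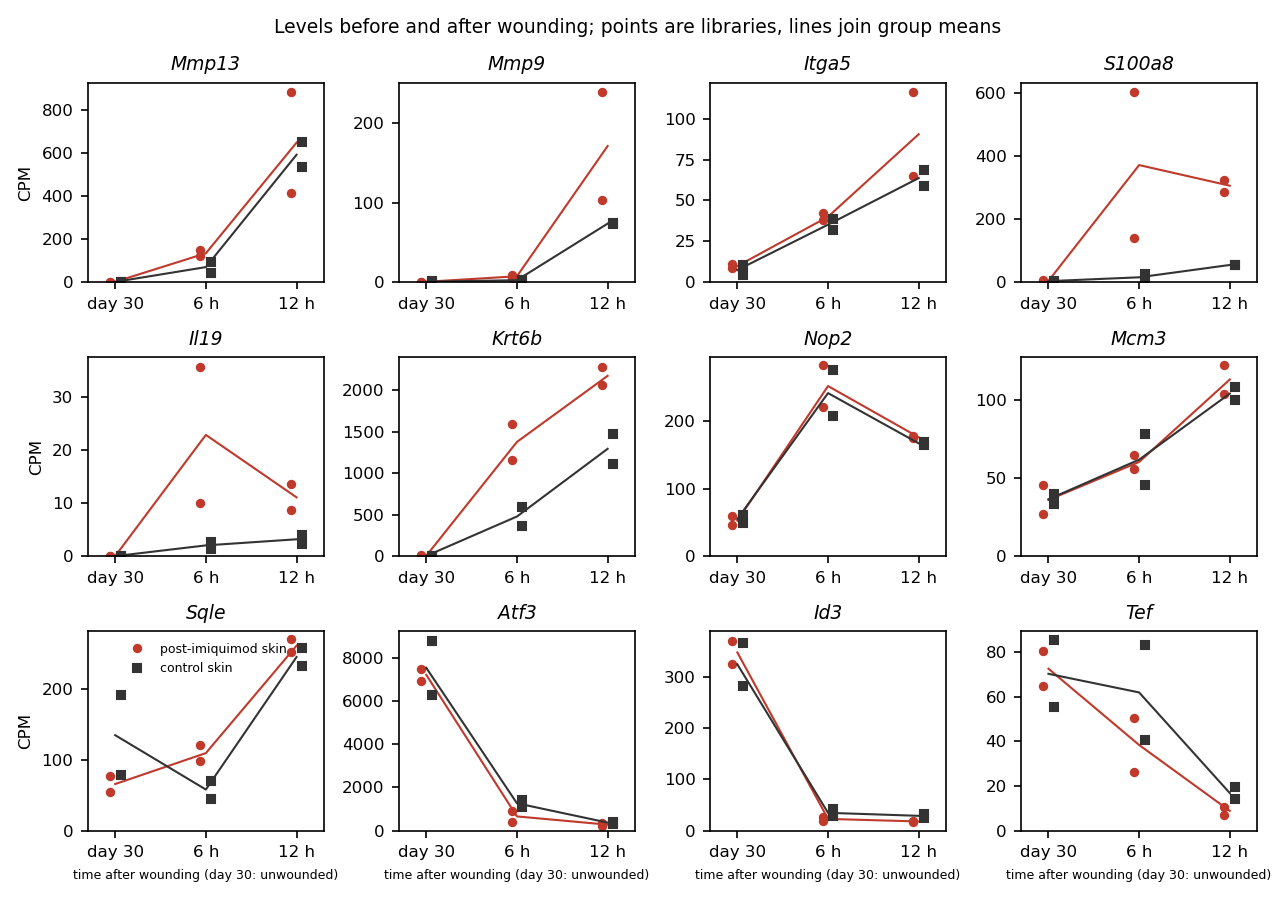
CPM of 12 genes at day 30 (unwounded) and 6 h and 12 h after wounding, in post-imiquimod skin (red circles) and control skin (dark squares); points are libraries and lines join the means of 2. Mmp9 and Mmp13 are highest at 12 h, Nop2 is highest at 6 h, and Atf3 and Id3 are highest before wounding.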

How the data were processed

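Sorted cells went into Trizol, and their RNA into Illumina TruSeq RNA libraries, per the labels' protocols. The authors deposited raw read counts per gene, 1 file a library; STAR and the mm10 build are named per the submitters' processing notes, with versions and the counting tool not given in the sources used here. This kit keeps no strand, so overlapping and antisense genes cannot be told apart. The 12 ATAC-seq samples were not analysed here.

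Counts of all 16 RNA libraries were joined by gene ID (47729 IDs, 30802 with a read), and 17299 genes passed edgeR's filterByExpr. Tests used edgeR 4.0.16 in R 4.3.3 (TMM scaling, robust quasi-likelihood F test, 8 group means, 8 residual degrees of freedom, Benjamini-Hochberg adjusted p under 0.05). A standard error is the size of the log2 change divided by the square root of F. The scripts were tested on simulated data. An exact permutation test of 2 against 2 libraries cannot go below p = 0.333 and was not used. Total counts differed 3.26-fold between libraries; bounds from 0 reads cover counting error only.

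The genes named include the 15 largest changes and 10 lowest p-values in each direction. These were taken among called genes averaging 2 log2 CPM or more whose groups do not overlap. Up to 4 called members of each of 23 pathway lists were added by size, without the level and overlap conditions. A panel of 20 was added without any condition. Apart from these, 14 marker lists were summed. Members and lists were chosen with earlier results of these data known. Alternatives were DESeq2 1.42.0 (its size factors, and its test), no filter, the 4 libraries alone, a replicate block, leaving out libraries, and thinning to the lowest total. Promoters are RefSeq windows matched by symbol (32851 windows, 27025 genes).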

Additional observations from a re-analysis of the deposited data

How the results depend on the processing

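With 2 libraries a group, leaving out 1 library left an arm with a single library that is assumed to vary like the other groups. The number of genes called then lay between 4066 and 5091, the number higher between 2322 and 2649 and the number lower between 1736 and 2442, against 6512, 3518 and 2994 with all libraries. Thinning all libraries to the lowest total gave 5910 calls, DESeq2 6961, DESeq2's size factors in edgeR 6483, no filter on low counts 6741, and a fit of the 4 compared libraries alone 6101. For the difference between the 2 skins, no filter gave 69 calls and DESeq2 1; the other settings gave 0. Of the 141 named genes, 102 kept their call and direction under every setting. The values of opposite sign were those of 4 genes with no call. Aim2 was at 0.0226 without a filter, at 0.0360 after thinning and between -0.35 and 0.15 with 1 library left out. Over the same omissions Casp1 lay between -0.43 and 0.15, Hbegf between -0.61 and 0.20, and Krt14 between -0.11 and 0.56. Areg passed the threshold without a filter, at a log2 change of 1.44. The labels do not say that the replicate numbers pair wound and day 30 libraries, and libraries of the same number had a correlation of 0.0877 in their deviations from the group means; with a replicate block 6597 genes were called. Between the 2 skins at 1 time point the same correlation was 0.220, 0.452, 0.539 and 0.323 at day 6, day 30, 6 h and 12 h, a hint of pairing from the data and not the design; with a replicate block within each time point 8381 genes were called, and the difference between the skins had 0 adjusted calls and 1417 unadjusted p-values under 0.05, against 503. Depth limits genes near 0 reads at day 30, whose fold is only bounded from below.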
